A study of Mus musculus with 23 samples.

Results

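Loss of p16 with a normal App gene was examined by comparing 6 hippocampal RNA-seq libraries labelled p16KO with 6 labelled WT, 12 of the 23 libraries of the study, across every gene counted. The p16KO mice are homozygous (P16<KO/KO>) and the WT mice carry neither change. The other mice are AppNLGF (APP<NLGF/NLGF>, n = 5), homozygous for a knock-in of familial Alzheimer mutations in App, and AppNLGF_p16KO (APP<NLGF/NLGF>P16<KO/KO>, n = 6), homozygous for both. All mice were about 5 months old, and both hippocampi of each animal gave 1 poly-A library. The labels give neither the part of the gene that was deleted, nor the strain background, nor which animals were littermates. Library numbers run in blocks by genotype (WT 1 to 6, p16KO 7 to 12), so genotype and handling order cannot be told apart.

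The p16 protein, a product of Cdkn2a, binds the cyclin-dependent kinases Cdk4 and Cdk6 and keeps the retinoblastoma protein active, which holds E2F target genes off. The gene is nearly silent in young tissue and is known for its induction in senescent cells. A second product, p19ARF, is read from the same locus in another frame and stabilises p53. The neighbouring gene Cdkn2b encodes a related inhibitor, p15.

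Levels are counts per 1e6 counts (CPM) after TMM scaling of library sizes, differences are log2 fold changes ± SE, and a gene is "called" at an adjusted p under 0.05 in edgeR's quasi-likelihood test (Benjamini-Hochberg over 19423 genes). Total counts were 54.6e6 to 58.7e6 in WT and 45.4e6 to 61.2e6 in p16KO. Xist and Y-linked genes marked 3 of 6 libraries as female in each group. Mitochondrial genes took 3.03% to 3.92% of counts in WT and 2.79% to 3.54% in p16KO. No libraries were identical (253 pairs). Hippocampal markers were present in every library: those of CA1 pyramidal neurons summed to 1031 to 1147 CPM in WT and 1018 to 1109 in p16KO, and those of dentate granule neurons to 418 to 604 and 449 to 578. In whole tissue, fewer cells of a type and less RNA per cell cannot be told apart.

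Cdkn2a itself was at the edge of detection. In WT 1 to 6 it had 6, 1, 3, 0, 5 and 2 reads; p16KO 7 to 12 had 0, 1, 2, 1, 0 and 0. The groups overlapped, and the mean of 0.0504 ± 0.0411 CPM in WT against 0.0117 ± 0.0141 in p16KO (SD, n = 6 each) gave p = 0.0649 in a two-sided exact permutation test over 924 splits. A count of 0 in a p16KO library still allows 0.0553 to 0.0660 CPM (3 reads of its total, counting error only), more than the WT mean. Summed over libraries, WT held 17 reads and p16KO 4. Whether the transcript was lost was therefore not settled at this depth, and directions below are those of the libraries labelled p16KO. The test passed 0.05 without WT 2 (p = 0.0476, exact permutation test), WT 4 (p = 0.0152) or p16KO 9 (p = 0.0476).

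Among the genes with the smallest p in p16KO libraries were Alad and Hdhd3, neighbours on the minus strand of chromosome 4 26.8 Mb from Cdkn2a; the scarce pseudogene Gm13453, described further on, ranked between them. Alad (ENSMUSG00000028393, GRCm38 chr4:62509169-62519918) encodes aminolevulinate dehydratase, which joins molecules of aminolevulinate into the pyrrole from which heme is built. Hdhd3 (ENSMUSG00000038422, chr4:62499008-62503467) encodes a protein of the haloacid dehalogenase hydrolase family. Their promoter stretches, from RefSeq on build GRCm38.p6 and without bases inside annotated exons, are shown because both transcripts moved together. Capitals mark matches on either strand to GGGCGG, known as the GC box, and to the CCAAT box, with overlapping matches joined.
Alad, chr4:62519919-62520159, minus strand: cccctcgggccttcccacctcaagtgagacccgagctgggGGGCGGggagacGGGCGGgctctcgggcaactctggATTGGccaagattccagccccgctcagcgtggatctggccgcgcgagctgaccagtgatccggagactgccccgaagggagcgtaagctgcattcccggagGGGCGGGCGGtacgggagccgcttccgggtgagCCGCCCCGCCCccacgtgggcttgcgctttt
Hdhd3, chr4:62502277-62502450, minus strand: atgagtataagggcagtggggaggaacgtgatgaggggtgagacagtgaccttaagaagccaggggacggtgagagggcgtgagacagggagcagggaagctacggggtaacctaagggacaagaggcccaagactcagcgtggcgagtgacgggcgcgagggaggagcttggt
The 241 bases before Alad hold 6 GC box matches and 1 CCAAT match. Stretches of that length hold at least 1 such match in 31.6% and 33.8% of 27025 promoters. The 174 bases before the shorter Hdhd3 transcript lie in an intron of a longer annotated Hdhd3 transcript and hold neither match (19.9% and 24.2% of promoters hold them at that length). The bases left out as exonic were those nearest each RefSeq start, and they were not searched. The letters shown before Alad and Hdhd3 have neither motif in common. Their GC content is 70.5% and 60.3%, against medians of 51.9% and 51.1% over promoters of the same lengths.

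Alad read 18.5, 18.5, 17.1, 18.6, 17.9 and 16.7 CPM in WT 1 to 6. In p16KO 7 to 12 it read 36.3, 34.1, 43.2, 27.3, 40.8 and 32.9 CPM. The WT libraries were tightly grouped and each p16KO library lay above them all, the lowest being p16KO 10. The mean rose from 17.9 ± 0.814 to 35.8 ± 5.70 CPM (SD, n = 6 each), a log2 change of 1.00 ± 0.11 (edgeR adjusted p = 1.09e-04). Hdhd3 read 6.14, 4.74, 5.40, 4.69, 4.00 and 4.35 CPM in WT and 8.40, 10.4, 10.6, 8.94, 11.2 and 8.79 CPM in p16KO. These groups did not overlap either, and Hdhd3 rose by log2 0.99 ± 0.14 (edgeR adjusted p = 8.38e-04).

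The genes on either side, looked up after these values were seen, did not pass. Bspry, next to Hdhd3, was at 0.621 ± 0.185 CPM in WT and 0.623 ± 0.0547 in p16KO (log2 0.01 ± 0.22, edgeR adjusted p = 0.996). Pole3, next to Alad on the other side and a subunit gene of DNA polymerase epsilon, was at 27.0 ± 1.71 and 28.5 ± 0.854 CPM (log2 0.08 ± 0.07, edgeR adjusted p = 0.584). Farther out, Cdc26 was at log2 0.13, Prpf4 at 0.01, Wdr31 at -0.13, 4933430I17Rik at -0.48, Rgs3 at 0.01 and Zfp618 at -0.37, with adjusted p from 0.133 to 0.985. The rise was thus called for this pair and for none of the 8 flanking genes looked up. Copy number of the Alad locus is known to differ between inbred mouse strains. DNA was not measured here.

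**Figure D1:**
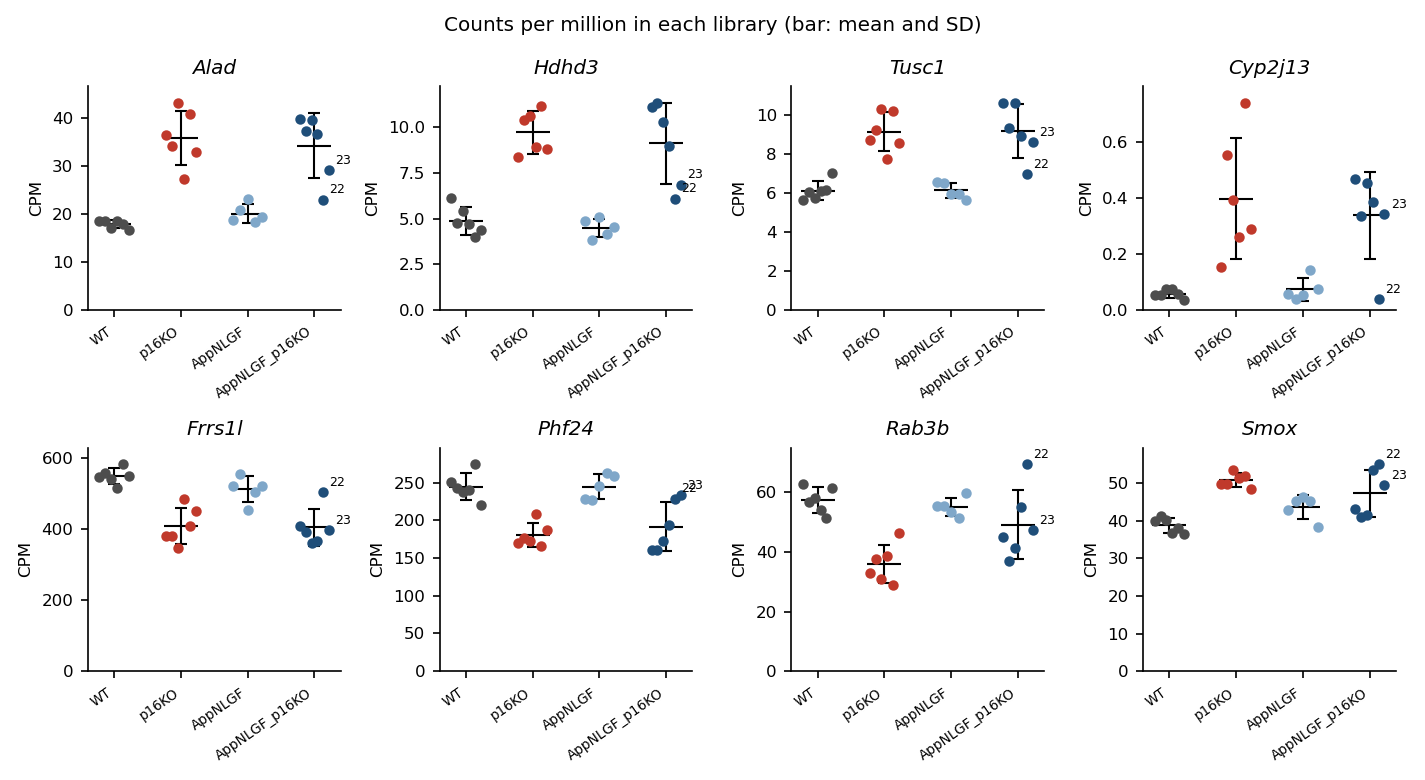
CPM (linear axis from 0) in each library for 8 genes, by genotype; points are libraries and bars the mean and SD. In Alad, Hdhd3, Tusc1 and Cyp2j13 the 6 p16KO libraries lie above the 6 WT libraries, and in Frrs1l, Phf24 and Rab3b below them; AppNLGF_p16KO 22 and 23 are numbered.

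In all, 60 of 19423 genes were called (0.309%), 51 higher in p16KO (0.263%) and 9 lower (0.0463%). An unadjusted p under 0.05 was reached by 3071 (15.8%), of which 1794 were higher (9.24%) and 1277 lower (6.57%). WT and p16KO libraries did not overlap for 352 (1.81%). The median absolute log2 change was 0.40 among the called genes and 0.12 among all genes tested, so most calls were small shifts between tight groups. Omission of WT 1 or p16KO 8 raised the count to 136 or 239, while omission of WT 2 to WT 6 gave 12, 14, 12, 21 and 18. Without p16KO 7, 9, 10, 11 and 12 it was 51, 7, 60, 10 and 19. DESeq2 called 469. Alad, Hdhd3, Cyp2j13 and the predicted genes Gm13453, Gm20075 and Gm5865 were called under each alternative in which they were tested. Tusc1 passed without each library in turn but not with length and GC trends removed (edgeR adjusted p = 0.0820). These 7 were the calls left without p16KO 9, so each further call below ended at least without that library.

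Several of the genes with the largest changes were scarce transcripts that are close to absent in WT. Gm13453, a processed pseudogene of chromosome 2, held 1, 1, 3, 2, 2 and 4 reads in WT and 50, 46, 86, 35, 60 and 23 reads in p16KO (log2 4.51 ± 0.59, edgeR adjusted p = 5.89e-04). Gm20075, annotated as protein-coding on chromosome 13, held 15, 14, 7, 9, 12 and 4 reads in WT and 44, 106, 100, 44, 109 and 53 in p16KO (log2 2.92 ± 0.41, adjusted p = 9.27e-04). Neither gene had a p16KO library as low as any WT library, and both lie on chromosomes other than that of Cdkn2a. Gm5865, a processed pseudogene of chromosome 5, held 7, 8, 14, 12, 8 and 7 reads in WT and 53, 88, 44, 12, 42 and 36 in p16KO (log2 2.32 ± 0.41, edgeR adjusted p = 0.0138), p16KO 10 lying within the WT range. Reads of a processed pseudogene can also come from its parent gene or another copy, so the source of these transcripts is uncertain.

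Bricd5, a gene of chromosome 17 for a BRICHOS-domain protein, varied among the p16KO libraries. WT held 0.239, 0.392, 0.329, 0.271, 0.224 and 0.255 CPM, and p16KO held 2.46, 1.80, 1.75, 0.596, 2.52 and 0.675 CPM. The groups did not overlap, but p16KO 10 and p16KO 12 lay far below the other 4 p16KO libraries. Bricd5 rose by log2 2.51 ± 0.45 (edgeR adjusted p = 0.0166), and its call ended without WT 4, p16KO 9 or p16KO 11 (adjusted p up to 0.0584).

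Calls were frequent along chromosome 4, which carries Cdkn2a. There, 18 of 1110 tested genes were called (1.62%), 14 higher and 4 lower, against 42 of 18313 on all other chromosomes (0.229%). WT and p16KO libraries did not overlap for 3.96% of tested genes of chromosome 4 and for 1.68% of the others. The chromosome was singled out after calls were seen and no test was made of it. The called genes lay from 47.6 Mb before to 50.0 Mb after Cdkn2a, and 0 of the 19 and 68 tested genes in the 2 steps of 20 Mb farthest before it were called, nor any of the 121 in the step farthest after it. By 20 Mb steps the called share was 3.25% at 60 to 40 Mb before Cdkn2a, 3.90% at 40 to 20 Mb, 2.00% in the last 20 Mb, 3.60% in the first 20 Mb after it, 1.82% at 20 to 40 Mb and 0.345% at 40 to 60 Mb. The calls were thus spread over a wide stretch on both sides. The 4 left without p16KO 9 (Alad, Hdhd3, Tusc1 and Cyp2j13) lay between 26.8 Mb before and 6.73 Mb after Cdkn2a. The share of tested genes without overlap was 5.19% at 60 to 40 Mb before it and 10.4% at 40 to 20 Mb. That share was 8.00% in the last 20 Mb, 8.11% in the first 20 Mb after, 3.18% at 20 to 40 Mb and 2.07% at 40 to 60 Mb. It was thus highest from 40 Mb before to 20 Mb after the gene. The count of 18 was 4 without p16KO 9, 5 without p16KO 11 or WT 2, 7 without WT 4 or WT 6, 8 without WT 3, 9 without p16KO 12, 10 without WT 5, 37 without p16KO 8 and 66 with DESeq2. Homozygous mice of a targeted line often keep a stretch of the donor strain's chromosome around the locus. Strain was not in the labels, and its part in these calls was not tested.

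**Figure D2:**
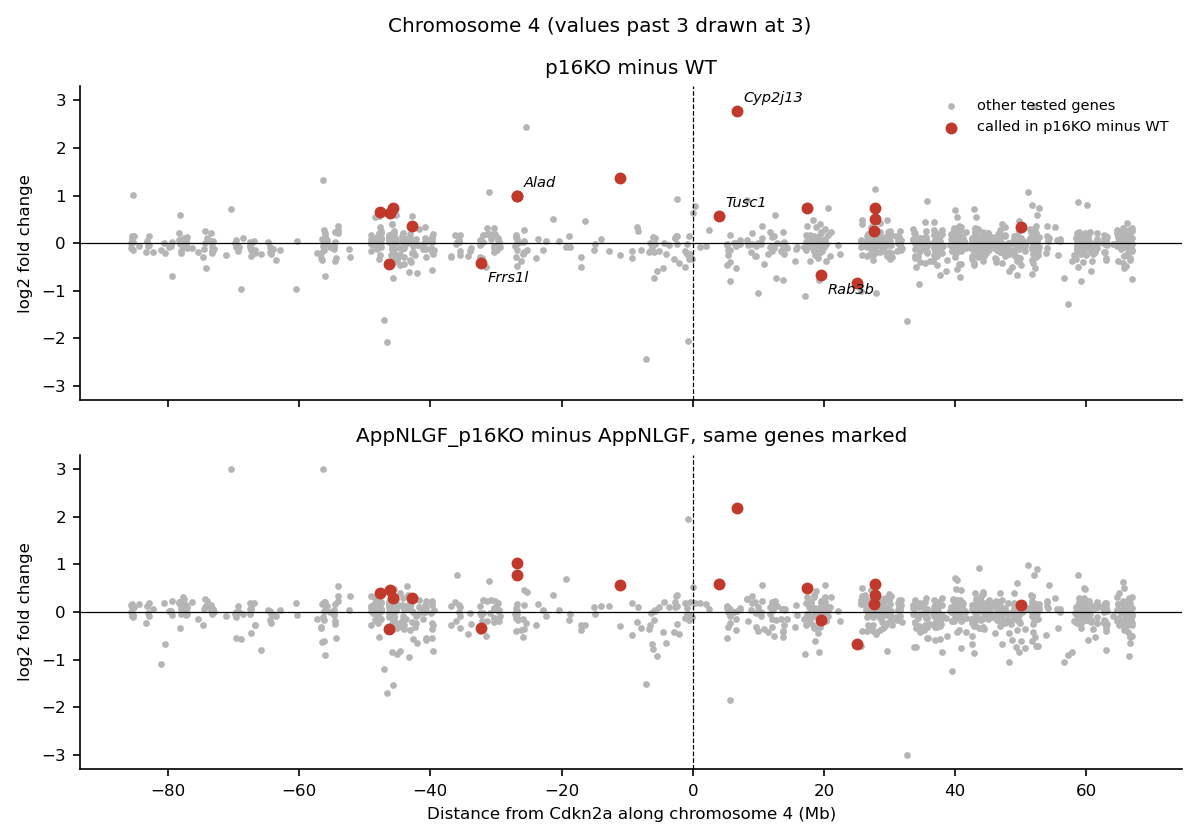
Each tested gene of chromosome 4 by its distance from Cdkn2a (x axis, Mb) and its log2 fold change (y axis), p16KO minus WT above and AppNLGF_p16KO minus AppNLGF below. Red points are the 18 genes called in p16KO minus WT; they lie between -47.6 and 50.0 Mb and have the same sign in both panels.

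The immediate neighbours of Cdkn2a were not called. Cdkn2b, encoding p15, was at 0.478, 0.464, 0.458, 0.487, 0.523 and 0.815 CPM in WT and 0.374, 0.666, 1.17, 0.755, 0.870 and 1.14 CPM in p16KO. The groups overlapped through p16KO 7 and WT 6 (log2 0.63 ± 0.23, edgeR adjusted p = 0.179). Mtap, of methionine salvage, was lower in 6 of 6 p16KO libraries (13.1 ± 1.17 against 10.5 ± 0.696 CPM, log2 -0.32 ± 0.09, edgeR adjusted p = 0.0871). Mtap passed with DESeq2 (adjusted p = 0.0240), in a fit of both groups alone and without AppNLGF_p16KO 22 and 23. Dmrta1, a transcription factor gene on the other side, was at log2 0.77 ± 0.35 (adjusted p = 0.284), and Gm49890, Gm26566 and Gm12634 were at -0.24, 0.14 and -0.08. In edgeR none of these 6 nearest tested genes passed the threshold with all libraries.

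Other calls on chromosome 4 that went up included Tusc1 and Cyp2j13. Tusc1, a candidate tumour suppressor gene, read 5.63, 6.08, 5.75, 6.13, 6.17 and 7.05 CPM in WT and 8.75, 9.26, 10.4, 7.77, 10.2 and 8.60 in p16KO (log2 0.58 ± 0.09, edgeR adjusted p = 0.00762). No p16KO library fell to the highest WT library. Cyp2j13, of a cytochrome P450 family that oxidises fatty acids, held 3, 3, 4, 4, 3 and 2 reads in WT and 7, 34, 23, 13, 40 and 15 reads in p16KO (log2 2.78 ± 0.47, adjusted p = 0.00920). Its p16KO libraries ranged widely while WT stayed at a few reads. In the list of Cyp2j genes and neighbours, chosen with earlier results known, the other 3 tested members were not called. Cyp2j9 was the most abundant of them.

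Dnaic1, an axonemal dynein intermediate chain gene of ciliated cells, read 4.2, 3.39, 4.30, 3.57, 4.02 and 3.77 CPM in WT and 5.74, 6.19, 7.33, 4.93, 5.68 and 6.81 in p16KO. The groups did not overlap, and Dnaic1 rose by log2 0.66 ± 0.12 (edgeR adjusted p = 0.0195). Spag8, a sperm and ciliary protein gene, rose by log2 0.75 ± 0.15 (adjusted p = 0.0359) with p16KO and WT overlapping. Markers of ependymal cells, the ciliated lining of the ventricles, summed to 29.8 to 38.6 CPM in WT and 24.0 to 49.2 in p16KO, and 0 of 10 were called. Btbd19 and Hectd3 rose by 0.52 ± 0.10 and 0.25 ± 0.05. Nans, the sialic acid synthase gene, rose by log2 0.35 ± 0.07 (adjusted p = 0.0381), as did Akr7a5, an aldehyde reductase gene, by the same 0.35 ± 0.07. Without WT 2 the calls of Dnaic1, Spag8, Btbd19, Hectd3, Nans and Akr7a5 ended as well. Mroh7 rose by 0.74 ± 0.16, the antisense transcript Gm26881 by 0.63 ± 0.12 and the non-coding B230208B08Rik by 1.36 ± 0.28.

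Only 9 genes fell, and 4 of them, all on chromosome 4, were Frrs1l, Phf24, Rab3b and Trabd2b. Frrs1l is a subunit of AMPA receptor complexes in the endoplasmic reticulum that is needed for their assembly. It read 547, 558, 541, 516, 584 and 551 CPM in WT and 382, 381, 346, 485, 409 and 451 in p16KO. The groups did not overlap, p16KO 10 being nearest to WT, and Frrs1l fell by 0.43 on the log2 scale (SE 0.08, edgeR adjusted p = 0.0166). Phf24, which regulates GABA-B receptor signalling, read 251, 243, 237, 240, 274 and 221 CPM in WT and 170, 176, 173, 209, 166 and 187 in p16KO (log2 -0.44 ± 0.09, adjusted p = 0.0242). The highest p16KO library lay just under the lowest WT library. Rab3b, a synaptic vesicle GTPase gene, read 62.9, 56.9, 58.1, 53.9, 51.4 and 61.4 CPM in WT and 33.1, 37.8, 31.1, 38.5, 29.0 and 46.3 in p16KO (log2 -0.68 ± 0.12, adjusted p = 0.0166). Rab3b also did not overlap between groups. Trabd2b, for a protease that cleaves Wnt proteins, held 2.13, 2.76, 2.14, 3.10, 3.79 and 2.45 CPM in WT and 1.52, 1.92, 1.5, 1.43, 1.24 and 1.52 in p16KO (log2 -0.84 ± 0.19, adjusted p = 0.0485). Besides p16KO 9, omission of p16KO 11 ended all 4 calls. Omission of WT 2 ended all but Rab3b, and WT 3, 4 or 5 those of Phf24 and Trabd2b. With trends of transcript length and GC content removed, Frrs1l was at log2 -0.28 (edgeR adjusted p = 0.117) and Trabd2b at -0.72 (adjusted p = 0.0787), no longer called, while Phf24 and Rab3b still were.

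The other 5 falling genes lie on other chromosomes. The lincRNA Gm35040 read 30.2, 31.9, 27.1, 30.8, 30.1 and 26.9 CPM in WT and 24.9, 22.6, 22.5, 22.4, 24.0 and 24.6 in p16KO (log2 -0.33 ± 0.06, edgeR adjusted p = 0.0166). Zfp110, a zinc finger gene, read 17.3, 18.5, 19.6, 18.3, 17.4 and 20.7 CPM in WT and 12.2, 14.5, 14.3, 17.0, 14.5 and 15.3 in p16KO (log2 -0.35 ± 0.07, adjusted p = 0.0372). Gpr26, an orphan receptor gene, read 252, 236, 236, 234, 254 and 222 CPM in WT and 185, 211, 193, 181, 202 and 190 in p16KO (log2 -0.30 ± 0.07, adjusted p = 0.0430). In each of these 3, the highest p16KO library stayed under the lowest WT library. Adam19, a membrane metalloprotease gene, read 17.4, 20.5, 18.5, 20.0, 20.1 and 18.1 CPM in WT and 13.6, 17.2, 14.6, 15.1, 14.7 and 16.5 in p16KO (log2 -0.32 ± 0.07, adjusted p = 0.0483). The antisense transcript Mccc1os read 2.51, 2.37, 3.00, 3.16, 2.67 and 2.90 CPM in WT and 1.74, 2.00, 1.82, 1.99, 2.20 and 2.01 in p16KO (log2 -0.50 ± 0.11, adjusted p = 0.0421). Their groups were also apart, by narrow margins. Zfp110, Gpr26, Adam19 and Mccc1os lost their calls without most single libraries (adjusted p up to 0.147), and Gm35040 without WT 2, WT 4 or p16KO 9. With trends of transcript length and GC content removed, Gpr26 was at log2 -0.14 (edgeR adjusted p = 0.351), Mccc1os at -0.37 (adjusted p = 0.127) and Gm35040 at -0.23 (adjusted p = 0.0758), while Zfp110 and Adam19 stayed called.

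Lists of synaptic genes held 3 of these falling members, Frrs1l, Phf24 and Rab3b, and no other call. The lists were chosen with earlier results of these data known, so calls in them are no support for a synaptic theme. In the list of AMPA, kainate and NMDA receptors and auxiliary subunits, 1 of 38 tested was called (Frrs1l), with 9 positive and a median log2 change of -0.08. Among genes of GABA receptors and synthesis 1 of 26 was called (Phf24; 7 positive, median -0.04), and of presynaptic vesicle release 1 of 41 (Rab3b; 8 positive, median -0.11). Over all genes tested 0.309% were called, 0.0463% as lower, and the median was -0.01 with 48.8% positive. The receptor subunits themselves, such as Gria1, the most abundant of the first list, and Gabbr1, of the second, were not called. With length and GC trends removed the medians were -0.05, 0.01 and -0.06.

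Smox was among the genes that rose outside chromosome 4. It encodes spermine oxidase, which turns spermine into spermidine and yields hydrogen peroxide. Smox read 39.9, 41.4, 40.3, 36.9, 38.1 and 36.4 CPM in WT and 49.7, 49.9, 53.6, 51.3, 51.8 and 48.5 in p16KO (log2 0.39 ± 0.07, edgeR adjusted p = 0.0138). The groups did not overlap, and p16KO 9 was the 1 library whose omission ended the call (adjusted p = 0.0579). Smox was the 1 call among 20 tested genes of polyamine and methionine salvage (15 positive, median log2 0.06). Alad was likewise the 1 call among 16 genes of heme synthesis (13 positive, median 0.08). Over all genes tested 0.309% were called and 48.8% were positive. Both lists were chosen with earlier results of these data known, so these counts are no independent support. Yjefn3 read 8.48, 8.26, 8.40, 8.28, 8.41 and 8.46 CPM in WT and 10.3, 11.4, 12.2, 11.5, 12.4 and 13.1 in p16KO (log2 0.50 ± 0.09, adjusted p = 0.0189). Its WT libraries were nearly alike and all p16KO libraries lay above them.

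Nubp2, of cytosolic iron-sulfur protein assembly, read 26.4, 24.3, 24.6, 22.5, 21.7 and 24.5 CPM in WT and 32.6, 28.5, 33.5, 28.4, 35.7 and 31.0 in p16KO (log2 0.40 ± 0.08, edgeR adjusted p = 0.0223). Romo1, a redox regulator of the mitochondrial inner membrane, read 29.7, 25.2, 25.0, 24.9, 25.7 and 24.6 CPM in WT and 30.3, 29.6, 40.7, 34.3, 39.2 and 43.4 in p16KO (log2 0.49 ± 0.09, adjusted p = 0.0223). Nubp2 was apart between groups, while Romo1 overlapped by 1 library, WT 1 against p16KO 8. Mt3 is the brain metallothionein that binds zinc and copper, and it rose by 0.33 ± 0.07 (278.6 ± 9.75 to 349.7 ± 32.6 CPM, adjusted p = 0.0479). Pmm1, a phosphomannomutase gene, rose by 0.28 ± 0.06, Rabac1, a prenylated Rab acceptor gene, by 0.37 ± 0.08 and Lmo1, a LIM-only transcription regulator gene, by 0.40 ± 0.08. Cyba, for the p22phox subunit of NADPH oxidase, rose by 0.41 ± 0.09, Rasl10a, a Ras-like GTPase gene, by 0.42 ± 0.09 and Rpp21, of ribonuclease P, by 0.33 ± 0.07. Grcc10, Pxdc1, Nkain4, Ptma, Tmem198, Asphd2 and Wdsub1 rose by log2 0.26 to 0.50. Each of these calls ended without WT 3, WT 4 or p16KO 9, among other single libraries.

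Ribosomal protein genes supplied 6 of the 51 rising calls. Of 79 tested cytosolic ribosomal protein genes, 6 were called upward, where 0.263% of all genes were; 68 were positive and the median log2 change was 0.17. Rplp1, an acidic stalk protein gene, read 247, 214, 223, 198, 196 and 209 CPM in WT and 266, 256, 358, 294, 327 and 315 in p16KO (log2 0.50 ± 0.10, edgeR adjusted p = 0.0258). WT 1 was the highest of its group and lay near the lowest p16KO libraries. Rps21 rose by 0.50 ± 0.10, Rpl26 by 0.34 ± 0.07, Rps15 by 0.36 ± 0.08 and Rplp2 by 0.26 ± 0.06. Summed over the list, WT libraries held 3519, 2965, 3121, 2942, 2938 and 3231 CPM and p16KO libraries 3393, 3537, 3783, 3566, 3543 and 3681. The sums overlapped only through WT 1. Ribosomal protein genes have many processed pseudogenes, and reads matching both are not counted when they align to more than 1 place. Rpl13a-ps1, itself such a pseudogene, rose by log2 1.36 ± 0.29 (adjusted p = 0.0423). Omission of WT 3, p16KO 9 or p16KO 11 ended each of these calls.

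Nuclear genes for subunits of the respiratory chain were mostly positive. Over all genes 0.309% were called and 48.8% positive, with a median log2 change of -0.01. In complex I, which oxidises NADH, 2 of 37 were called, 33 were positive and the median was 0.17. Ndufa7 read 65.8, 58.4, 58.2, 56.8, 57.3 and 60.1 CPM in WT and 67.0, 68.8, 84.0, 71.0, 79.3 and 86.1 in p16KO (log2 0.36 ± 0.08, edgeR adjusted p = 0.0407). WT 1 again stood nearest to p16KO, with no overlap. Ndufs7 rose by 0.38 ± 0.08 (adjusted p = 0.0430). In complexes II to V, 1 of 38 was called, Uqcrq of complex III (log2 0.39 ± 0.08, adjusted p = 0.0433), with 34 positive and a median of 0.14. Among 53 mitochondrial ribosomal proteins Mrpl14 was the 1 call (log2 0.37 ± 0.08; 49 positive, median 0.11). The list of genes encoded in mitochondrial DNA itself had 7 tested members, with 0 calls, 1 positive and a median of -0.13. That median was -0.03 with length and GC trends removed. In the main fit mt-Nd5 was at log2 -0.34 ± 0.14 (edgeR adjusted p = 0.249) and mt-Co1 at 0.06 ± 0.07. Over all 20 tested genes of the mitochondrial genome, listed or not, 0 were called and the median was 0.07. Outside the lists, further genes that rose were Timm13, for a mitochondrial import chaperone (0.33 ± 0.07), Dad1, of oligosaccharide transfer (0.35 ± 0.08), and the splicing genes Snrpd2 (0.36 ± 0.08) and Sf3b5 (0.42 ± 0.09). Of 31 proteasome genes 0 were called, with 27 positive and a median of 0.08. Psmb5 was nearest (log2 0.30 ± 0.08, adjusted p = 0.0871). Omission of any of WT 2 to WT 6 ended the calls of Ndufa7, Ndufs7, Uqcrq and Mrpl14.

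Transcript length moved with these groups. Over all genes the median log2 change fell from 0.05 in the shortest decile of transcripts to -0.09 in the longest, and positive changes from 61.4% to 25.7%. Of the 60 calls, 19 lay in the shortest decile, all of them up. The called rising genes outside chromosome 4 had a median transcript length of 629 bases against 1466 for all genes, and the falling genes 3353. In each library the median deviation of the shortest minus the longest decile was -0.15 to -0.01 in WT and -0.04 to 0.10 in p16KO, and WT 1 (-0.01) was the WT library nearest to p16KO. Ribosomal protein genes had a median length of 628.5 bases and complex I genes of 686. With length and GC trends removed, 28 genes were called, 22 of them among the 60, and the list medians were 0.14 for both. Those 22 were Alad, Hdhd3, Cyp2j13, Dnaic1, Spag8, Nans, Phf24, Rab3b, Zfp110, Adam19, Smox, Yjefn3, Nubp2, Lmo1, Bricd5, Rplp1, Rps21, Dad1, Sf3b5, Gm13453, Gm20075 and Gm5865, and every other call described here ended in that fit. Timm13 was at log2 0.21 there (edgeR adjusted p = 0.173). What sets this trend was not tested.

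**Figure D3:**
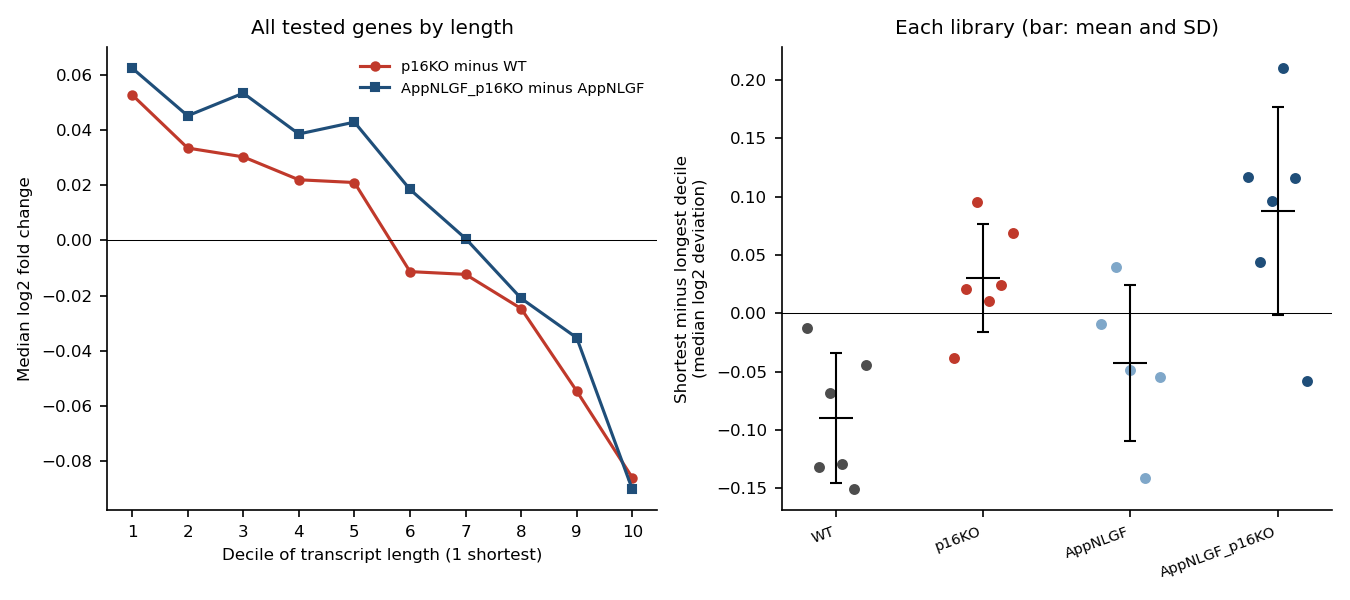
Left, median log2 fold change (y axis) of all tested genes by decile of transcript length (x axis) in both comparisons; right, the shortest minus the longest decile in each library, as median log2 deviation, with mean and SD per genotype. Both lines fall from left to right, from 0.05 to -0.09 in p16KO minus WT, and on the right WT libraries lie at -0.15 to -0.01 and p16KO libraries at -0.04 to 0.10, overlapping through WT 1 and p16KO 7.

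The lists of the pathway that p16 acts in held 0 called genes. With 0.309% of all genes called, a count of 0 in lists this short is near the background. At an unadjusted p under 0.05, 9.24% of all genes were higher and 6.57% lower. There, 7 of 27 p53 targets and 2 of 6 cyclin-dependent kinase inhibitor genes were higher and 0 lower. The D cyclin and Rb list had 3 of 16 higher and the E2F list 3 of 30, also with 0 lower. Of 32 senescence secretory genes 1 was higher and 2 lower. Of 6 tested cyclin-dependent kinase inhibitor genes 0 were called, with 5 positive and a median of 0.16. Cdkn1b, encoding p27 and the most abundant of them, was at 62.5 ± 3.42 CPM in WT and 67.3 ± 4.75 in p16KO (log2 0.11 ± 0.06, edgeR adjusted p = 0.402). Cdkn2d, encoding p19INK4d, was at log2 0.16 ± 0.07 (adjusted p = 0.303). Of 16 genes of D cyclins, their kinases and the Rb family 0 were called (10 positive, median 0.02). Cdk4, a kinase that p16 binds, read 48.5, 44.7, 44.3, 44.5, 40.9 and 47.3 CPM in WT and 46.9, 50.0, 52.9, 47.7, 51.7 and 51.5 in p16KO, overlapping between groups (log2 0.15 ± 0.06, adjusted p = 0.199). Ccnd3 was at 0.26 ± 0.11 (adjusted p = 0.230) and Ccnd2, the most abundant cyclin of the list, at 0.03 ± 0.06.

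Of 30 E2F target and proliferation genes 0 were called, with 16 positive and a median of 0.03. Pcna, the sliding clamp of DNA replication, was higher in each p16KO library than in each WT library except WT 1 (20.4 ± 1.68 against 23.8 ± 0.977 CPM, log2 0.22 ± 0.07, edgeR adjusted p = 0.111). Birc5, of cell division, was at 0.597 ± 0.0624 and 0.866 ± 0.294 CPM (log2 0.53 ± 0.19, adjusted p = 0.176). Of 27 p53 target genes 0 were called (19 positive, median 0.07). Bax, a promoter of apoptosis, was at log2 0.22 ± 0.07 (adjusted p = 0.133) and Sesn1, a stress sensor, at 0.19 ± 0.07 (adjusted p = 0.155). Of 40 listed genes secreted by senescent cells 32 passed the count filter and 0 were called (18 positive, median 0.02). Plau, a plasminogen activator gene, was below the WT mean in 6 of 6 p16KO libraries without passing (log2 -0.43 ± 0.15, edgeR adjusted p = 0.149). The groups overlapped.

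**Figure D4:**
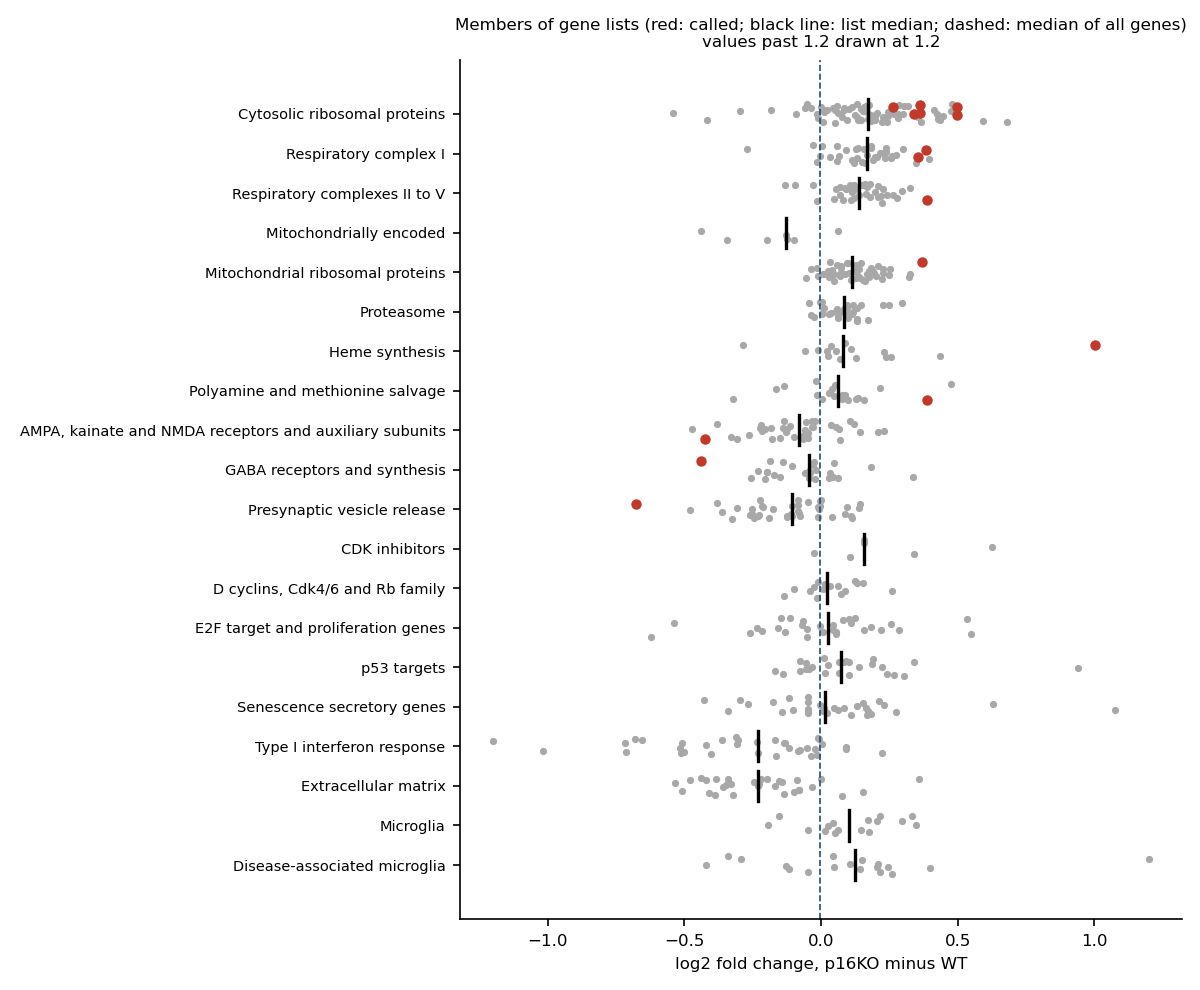
Log2 fold change, p16KO minus WT (x axis), of each tested member of 20 gene lists (rows); grey points are members, red points called members, black lines list medians and the dashed line the median of all genes (-0.01). The 6 red points of the ribosomal list lie above 0, and the lists of the p16 pathway have none, where 0.309% of all genes were called.

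Glial, immune and vascular lists likewise held 0 called genes, near the background of 0.309% for lists this short. Of 16 microglial markers 0 were called, with 13 positive and a median of 0.10. At an unadjusted p under 0.05, 5 of the 16 were higher and 0 lower, where 9.24% and 6.57% of all genes were. C1qa, a complement gene of microglia that also lies on chromosome 4, read 42.2, 42.5, 47.3, 43.1, 36.9 and 46.6 CPM in WT and 64.4, 48.7, 57.2, 56.9, 50.8 and 51.3 in p16KO. The groups were apart, yet the difference missed the threshold (log2 0.35 ± 0.08, edgeR adjusted p = 0.0657). Of 18 markers of disease-associated microglia 0 were called (12 positive, median 0.12), with 5 higher and 0 lower at an unadjusted p under 0.05. Their sums did not overlap, at 1642 to 1812 CPM in WT and 1861 to 2233 in p16KO. Apoe, the most abundant of them, did not overlap either. It was at 1315 ± 50.8 and 1559 ± 104 CPM (log2 0.25 ± 0.06, edgeR adjusted p = 0.0737). Among astrocyte markers 0 of 12 were called, Gfap being at log2 0.20 ± 0.09 (adjusted p = 0.268), and among endothelial markers 0 of 12. Lists of neuronal, oligodendrocyte, pericyte, blood and neighbouring region markers also had 0 calls, as did those of chaperones, the circadian clock, cholesterol synthesis and glucocorticoid-induced genes.

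The type I interferon list had 0 calls in 35 genes, 4 positive and a median of -0.23, and 8 of them were lower at an unadjusted p under 0.05 (6.57% of all genes were). Ifih1, an RNA sensor, read 4.38, 4.24, 5.71, 4.73, 5.04 and 5.25 CPM in WT and 2.81, 3.78, 3.52, 3.32, 3.20 and 3.88 in p16KO. These libraries did not overlap, and the adjusted p was 0.0701 (log2 -0.52 ± 0.13, edgeR). Oasl1 was at 0.290 ± 0.119 and 0.0836 ± 0.0424 CPM (log2 -1.76 ± 0.48, adjusted p = 0.0871). Ifi27, the most abundant member, was at log2 0.22 ± 0.11 (adjusted p = 0.341).

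Extracellular matrix genes had 0 calls in 32, 4 positive and a median of -0.23. Lama4, a laminin gene of vessels, was below the WT mean in 6 of 6 p16KO libraries, with the groups overlapping (log2 -0.48 ± 0.12, edgeR adjusted p = 0.0825). Sparcl1, the most abundant, was at -0.14 ± 0.06 (adjusted p = 0.284). Markers of meninges and fibroblasts, which make matrix, had 0 calls in 16, 3 positive and a median of -0.24. Their summed level ran from 439 to 886 CPM in WT and from 458 to 925 in p16KO, and Ptgds, the most abundant, was at log2 -0.27 ± 0.26 (adjusted p = 0.631). Their part in the matrix values was not tested. Choroid plexus markers varied widely between libraries, from 387 to 5169 CPM in WT and from 1061 to 8162 in p16KO, with 0 of 12 called. Lcn2, an acute-phase gene of the glucocorticoid list, was at 19.2 CPM in p16KO 7 and at 0.0183 to 0.251 CPM in the other 11 libraries of both groups, and was not called (adjusted p = 0.0925).

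The same change of genotype was made a second time, on the App knock-in background, with AppNLGF_p16KO and AppNLGF libraries that share no library with the comparison above. Before those values are read, 2 libraries labelled AppNLGF_p16KO have to be set apart. Alad read 18.7, 20.8, 23.1, 18.3 and 19.3 CPM in AppNLGF 13 to 17, and 39.7, 37.2, 39.6, 36.6, 23.0 and 29.0 CPM in AppNLGF_p16KO 18 to 23. Gm13453 held 5, 0, 4, 4 and 5 reads in AppNLGF and 77, 50, 63, 45, 4 and 19 in AppNLGF_p16KO, and Gm20075 held 7, 6, 8, 11 and 3 against 55, 101, 86, 71, 9 and 59. The library labelled AppNLGF_p16KO 22 was within the AppNLGF range for each of these 3 genes, and library 23 lay between the groups for Alad and Gm13453. Frrs1l (505 CPM), Phf24 (229 CPM) and Rab3b (69.5 CPM) of library 22 were likewise inside or above the AppNLGF range. Hdhd3 (6.10 CPM against 3.84 to 5.06 in AppNLGF) and Tusc1 (6.98 CPM against 5.67 to 6.59) of library 22 were instead above every AppNLGF library, though below the other 5 AppNLGF_p16KO libraries. Cdkn2a held 8 reads in library 22 and 2 in library 23, against 0, 6, 6 and 2 in libraries 18 to 21 and 2, 6, 9, 4 and 4 in AppNLGF. Counts of calls and values of some genes on this background are given with and without these libraries. List and transcript length values are given with them only. They were picked by their levels of called genes, so the values without them are no independent support.

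With every library kept, 59 of the 60 genes had the same sign on the App background (98.3%, against 67.8% of all genes tested), and 43 had in addition an unadjusted p under 0.05 there (71.7%, against 20.6%). Alad, Hdhd3, Gm13453, Gm20075 and Tusc1 also passed at an adjusted p under 0.05, 5 of the 6 genes called in that comparison (0.0309% of all genes; the other was Cd2ap). Alad was at log2 0.77 ± 0.12 (edgeR adjusted p = 0.00771), Hdhd3 at 1.02 ± 0.15 (adjusted p = 0.00427) and Tusc1 at 0.58 ± 0.10 (adjusted p = 0.0160). The median change of the 60 genes, taken in the direction of the first comparison, was log2 0.40 in the first and 0.25 in the second. All 18 genes of chromosome 4 and all 9 falling genes kept their sign. The 1 gene with the opposite sign was Rpl13a-ps1 (log2 1.36 ± 0.29 and -0.19).

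Without AppNLGF_p16KO 22 and 23, 59 genes again had the same sign, 42 with an unadjusted p under 0.05, and 33 of the 60 passed in place of 5. The whole comparison then held 4203 called genes in place of 6, so the 33 stand against a far larger background. Frrs1l was at log2 -0.44 ± 0.08 (edgeR adjusted p = 0.00256), Phf24 at -0.52 ± 0.07 (adjusted p = 5.78e-04) and Rab3b at -0.32 ± 0.11 (adjusted p = 0.0460). Smox was at 0.02 ± 0.07 (adjusted p = 0.834). Leaving out library 23 alone gave 37 of 60, with 4156 genes called in the whole comparison. Leaving out library 22 alone gave 7 of 60, with 21 genes called. Since all libraries share 1 estimate of spread, p16KO minus WT itself changed without both libraries 22 and 23. It then had 184 calls in 19576 genes tested, the 60 among them, and 40 on chromosome 4.

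**Figure D5:**
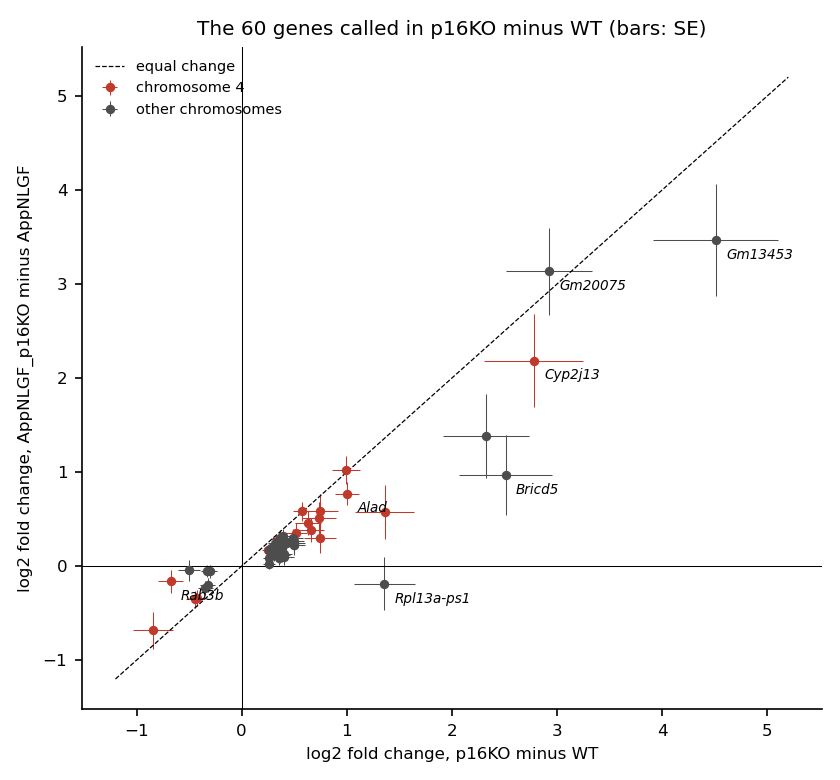
Each of the 60 genes called in p16KO minus WT, with its log2 fold change there (x axis) and in AppNLGF_p16KO minus AppNLGF (y axis); bars are SE and the dashed line marks equal change. Of the points, 59 have the same sign on both axes, most lie between 0 and the dashed line, and Rpl13a-ps1 lies across 0. The genes were picked by the comparison on the x axis, so smaller values on the y axis are expected.

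The difference between backgrounds was tested with the interaction term, which called 0 of 19423 genes in edgeR (1021 at an unadjusted p under 0.05) and 0 in DESeq2 (1006). Without AppNLGF_p16KO 22 and 23 edgeR again called 0, with 2999 genes at an unadjusted p under 0.05. Without library 23 alone it called 0, with 2273 genes at an unadjusted p under 0.05. With every library kept, 14 of the 60 genes had an unadjusted interaction p under 0.05. The 60 were picked by p16KO minus WT, which is a part of the interaction contrast. An excess of small interaction p-values among them is therefore expected and is no evidence of a difference between backgrounds. The 5 with the smallest were Rpl13a-ps1 (interaction log2 -1.55), Gm35040 (0.28), Mccc1os (0.46), Rab3b (0.51) and Wdsub1 (-0.23), each with an edgeR adjusted p of 0.897. For Rpl13a-ps1, WT held 0.102 to 0.256 CPM while p16KO held 0.270 to 0.852, AppNLGF 0.373 to 0.869 and AppNLGF_p16KO 0.351 to 0.652. In this transcript WT was the group that stood apart. A difference between backgrounds was therefore not called for any gene. Ribosomal, complex I and complexes II to V genes, with every library kept, had medians of 0.15, 0.23 and 0.23 on the App background. Of their members 69, 35 and 37 were positive and 0 were called. The same fall with transcript length was present (0.06 in the shortest decile to -0.09 in the longest). The interferon list was at -0.50 there with 1 positive, and immediate early genes, at -0.09 with 8 of 29 positive in p16KO minus WT, were at 0.13 with 20 positive.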

How the data were processed

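The deposited table holds raw counts of uniquely aligned reads for 37173 genes in 23 libraries, per the labels' protocols. Stranded poly-A libraries (350 ng RNA, 12 PCR cycles) were read as 50-base single ends. Reads were trimmed with cutadapt 4.2, cleared of ribosomal RNA with Bowtie2 2.3.5 and aligned with STAR 2.7.10b to GRCm38, per the submitters' processing notes and the labels. Of 37060 genes shared with GENCODE M21, 36795 had identical GRCm38 coordinates. No molecular identifiers were used. Limits set from a count of 0 cover counting error only, while SDs, SEs and p-values reflect the spread between libraries.

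Genes kept by filterByExpr (minimum 10) were fitted in edgeR 4.0.16 with TMM and robust quasi-likelihood dispersion, in 1 model of 4 genotypes and 23 libraries (biological coefficient of variation 15.8%), two-sided, without a replicate block. Nothing in the labels says how animals were related, so p-values measure the spread between these samples. Groups come from the genotype labels. CPM uses TMM library sizes. Cdkn2a was compared by exact permutation of CPM. Alternatives were DESeq2 1.42.0, RLE factors, other count filters, both groups alone, a sex term, no robust shrinkage, removal of length and GC trends and omission of each library. The procedure was tested on simulated data.

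The members and the 41 gene lists (904 of 910 entries found) were chosen with earlier results of these data known. The naming rule took any called gene with a symbol, values by library for falling genes and for the leading rising ones, 4 predicted genes, the called or else the nearest and most abundant members of each list, and Cdkn2a, Cdkn2b, Mtap and App (log2 -0.04 ± 0.04, adjusted p = 0.653). Lcn2's library values, the Alad neighbours and AppNLGF_p16KO 22 and 23 were picked after values were seen. A few called genes that it covers are left out of the text.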

Additional observations from a re-analysis of the deposited data

Results flagged for a closer look

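Of 128 groups of 6 libraries examined for the named genes, 5 held a library far from the other 5. Chance would give about 1 in 20 for groups not picked by their values, and this count is not above that. Most of these genes were picked as called, which favours tight and separate groups, so that rate need not hold here. No conclusion is drawn from the count. Each was the highest WT library. Pxdc1 was at 10.9 CPM in WT 2, the others being at 9.10 to 9.67. Rasl10a was at 40.2 CPM in WT 6 (others 28.3 to 32.4), and Cdkn2b at 0.815 CPM in the same library (others 0.458 to 0.523). In WT 1, Ndufa7 was at 65.8 CPM (others 56.8 to 60.1) and Romo1 at 29.7 CPM (others 24.6 to 25.7). Pxdc1, Rasl10a, Ndufa7 and Romo1 were called higher in p16KO, so these WT libraries lay toward the p16KO values.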

How the results depend on the processing

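The count of 60 calls was 469 with DESeq2 (76.1% of them higher in p16KO), 356 with WT and p16KO alone (72.8%, against 85.0%), 28 with length and GC trends removed, 184 without AppNLGF_p16KO 22 and 23, and 7 to 239 without each library in turn. It was 57 with RLE factors, 58 with the submitters' filter, 66 without a filter, 65 with a sex term and 42 without robust shrinkage. On chromosome 4 the 18 calls became 66, 48, 11 and 40 under the first 4 of these settings, and 4 to 37 without each library. Of the 60 genes, 5 passed on the App background and 9 with DESeq2. The count was 33 without AppNLGF_p16KO 22 and 23, and 2 to 37 without each library in turn. Under the same settings that comparison called 6, 676, 4203 and 2 to 4156 genes in all. Of the 60, 56 to 60 had the same sign under these settings. The interaction had 0 calls under each setting. For Cdkn2a p was 0.0152 to 0.102 without each library, by exact permutation. For single named genes 847 results kept their side of the threshold, 471 lost it and 3 gained it, with 0 reversed; the cause was not tested. List medians moved by more than the spread between libraries in 8 recomputations and by less in 853. No paired analysis was possible because library numbers run from 1 to 23 and no number is shared between groups. The omission of AppNLGF_p16KO 22 and 23 and the settings for chromosome 4, Cdkn2a and the interaction were chosen after seeing the data.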
